A study of Mus musculus with 2 samples.

Results

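PSGL-1 (encoded by Selplg) and 9 enzymes that build its selectin-binding glycans were followed in RNA of mouse Treg cells, which are regulatory CD4+ T cells defined by Foxp3 that hold immune responses in check. The 10 genes were chosen by symbol, and all 10 are among the 24081 gene symbols of the count table. All 10 also had a mean of at least 20 reads over both libraries, the floor above which a gene is called measured here. That floor was passed by 10899 genes.

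Lymph nodes and spleen of C57BL/6 mice of 5 weeks gave the cells, sorted for CD4 and YFP (CD4+ YFP+), and each library pooled cells of 5 to 10 mice. All mice carried a Foxp3-driven Cre allele in heterozygous form (Foxp3cre/wt), and YFP marks the cells in which it was active. Mice with 1 floxed allele gave the library titled WT, the floxed gene being part of the SUMO pathway, which attaches small SUMO proteins to other proteins. Mice with both alleles floxed gave the library titled KO. The control cells therefore carry Cre and a floxed allele too. Foxp3 lies on the X chromosome, so heterozygous females also hold Treg cells without Cre, which the YFP gate leaves out. Both samples carry a genotype label of wild type, so the groups rest on the titles. The study's question is what Treg cells need SUMOylation for. With 1 library per group there is no replicate check, no test was run, and the 95% intervals below cover counting error only. In RNA of pooled cells, fewer cells that express a gene and less RNA per cell cannot be told apart.

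Selectins are adhesion receptors that catch flowing cells by binding sugars on them. PSGL-1 is the main P-selectin ligand of T cells, and it binds only after its O-linked sugars and tyrosines have been modified. A core 1 O-glycan is branched by the core 2 enzyme Gcnt1, the branch is extended with galactose, capped with sialic acid by St3gal enzymes and decorated with fucose by Fut7 or Fut4, which gives the sialyl Lewis X group. Tpst1 and Tpst2 add sulfate to tyrosines of the protein. Naive T cells carry PSGL-1 without the functional sugars, and activated and effector T cells gain them largely by inducing Gcnt1 and Fut7.

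Selplg, B4galt1, St3gal1, St3gal4, Tpst1 and Tpst2 were at like or modestly higher levels in the KO library, while Gcnt1 and Fut7 were lower. Gcnt1 was 2.77-fold lower (interval 1.97 to 3.92) and Fut7 was 2.01-fold lower (1.10 to 3.68). St3gal6, a sialyltransferase of selectin ligand synthesis, was 1.35-fold lower (1.04 to 1.73). Selplg itself was 1.32-fold higher (1.29 to 1.34). Fut4, with about as few reads as Fut7, was 2.07-fold higher, with an interval of 0.978 to 4.88 that spans no difference. Among the 10 members 2 were at least 1.5-fold lower, against 5.51% of all measured genes, and 1 was at least 1.5-fold higher, against 7.43%. Genes with few reads pass such a fold more often: of the 1848 measured genes with a mean under 100 reads, 15.7% were at least 1.5-fold lower and 16.3% higher. All 3 members past the fold, Gcnt1, Fut7 and Fut4, are among those genes, and no other member is. Of these 3 genes 2 were lower, and 3 genes are too few to compare with that share. The median log2 ratio of KO over WT over the 10 genes was 0.20, beside 0.01 over all measured genes.

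**Figure D1:**
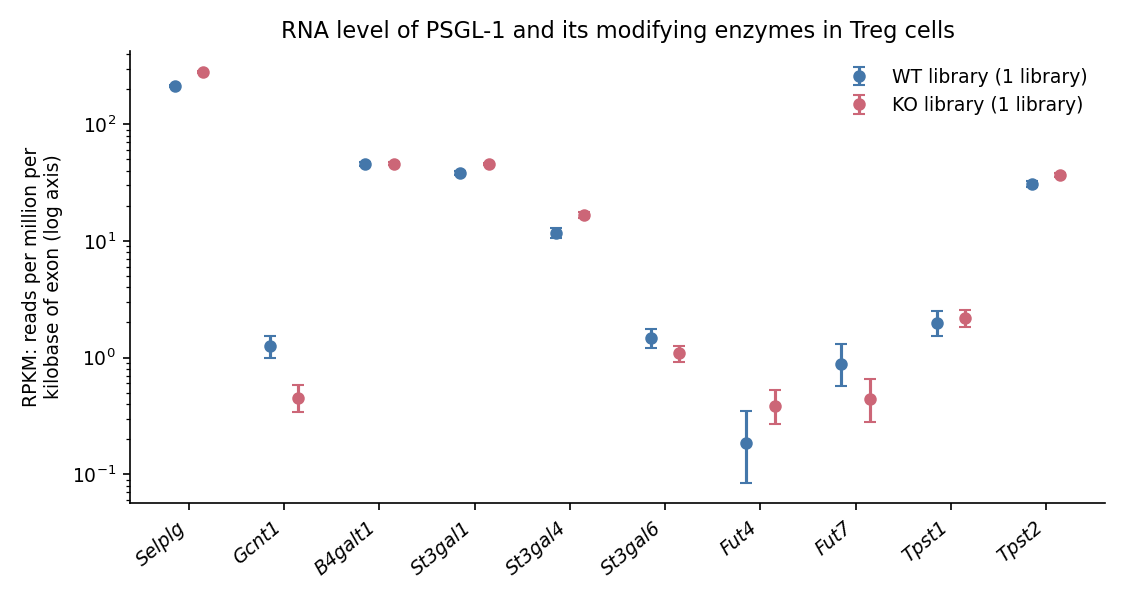
RNA level of the 10 genes in RPKM (scaled reads per kilobase of exon, on a log axis) in the WT and KO libraries. Points are single libraries and bars are exact 95% Poisson intervals for counting error. Selplg lies above every enzyme in both libraries, and the interval of Gcnt1 in the KO library (0.343 to 0.579) lies below that in the WT library (0.997 to 1.54).

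Reads in genes numbered 11662867 for WT and 23789264 for KO. The 8 T cell and Treg markers were present in both, with none at 0. Levels are given as CPM, reads per 1000000 reads of the scaled library, and Cd4 stood at 1939 and 2348 CPM and Foxp3 at 713 and 1320. Their summed level was 5487 and 6613 CPM, but not every marker was higher in KO: Ctla4 was at 143 and 88.8, Ikzf2 at 322 and 203 and Cd3g at 527 and 366. Markers of myeloid cells, which also carry PSGL-1 and use these enzymes, were present as well. The 7 monocyte and macrophage markers in the table summed to 487 CPM in WT and 453 in KO, with none at 0, and the 9 neutrophil markers to 8.60 and 9.84, with 2 and 1 at 0. The 7 B cell markers summed to 141 and 111, the 5 NK cell markers to 6.34 and 7.34 with Klra8 and Klra4 at 0 in both, and the 6 platelet markers to 2.504 and 2.37, with 2 and 4 at 0. The 6 dendritic cell markers summed to 20.7 and 26.5, the 2 CD8 T cell markers to 33.6 and 41.5, and the 5 endothelial markers to 3.84 and 4.14 with Emcn at 0 in both. The 4 erythroid markers were lower in the KO library, at 14.3 and 5.57, with Hba-a1 at 0 in both. The part of these cells in the results below was not tested.

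The carrier was the most abundant member. Selplg (chr5:113818536-113832644, minus strand) had 10927 reads in WT and 27792 in KO. Divided by library size and by the total exon length of the gene, its level was 214 RPKM (CPM per kilobase of exon) in WT (interval 210 to 218) and 281 in KO (278 to 284). The next highest member per length, B4galt1, stood at 45.5 in WT and 45.8 in KO. B4galt1 (chr4:40804602-40854005, minus strand) encodes a galactosyltransferase that builds the galactose-containing chain on which sialic acid and fucose are placed. Its reads were 2308 and 4489, and its ratio was 1.01 (0.956 to 1.06), so no difference was detectable at this depth.

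Selplg is rich in G and C, so its ratio is set here beside those of genes of like GC content. Over the 10447 measured genes with a known transcript GC content, the ratio went up with GC content. The source of this trend was not tested. When genes were cut by GC content into 10 bands of equal size, the band with the highest GC content, to which Selplg belongs at 58.6%, had a median log2 ratio of 0.37. Selplg stood at 0.40, close to that median. With a smooth trend on GC and transcript length taken out, Selplg was at 0.16 and Tpst2, in the same band at 59.6% GC, went from 0.25 to -0.02. Gcnt1 and Fut7 were different in this respect. Gcnt1 has 42.1% GC and lay in a band with a median of -0.12, and it stood at -1.45 before and -1.32 after removal. Fut7 has 57.7% GC and lay in a band with a median of 0.23, and it stood at -0.97 before and -1.17 after. With the trend removed the same 2 members were at least 1.5-fold lower, against 5.3% of 10447 genes, and the same 1 was higher, against 4.5%.

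**Figure D2:**
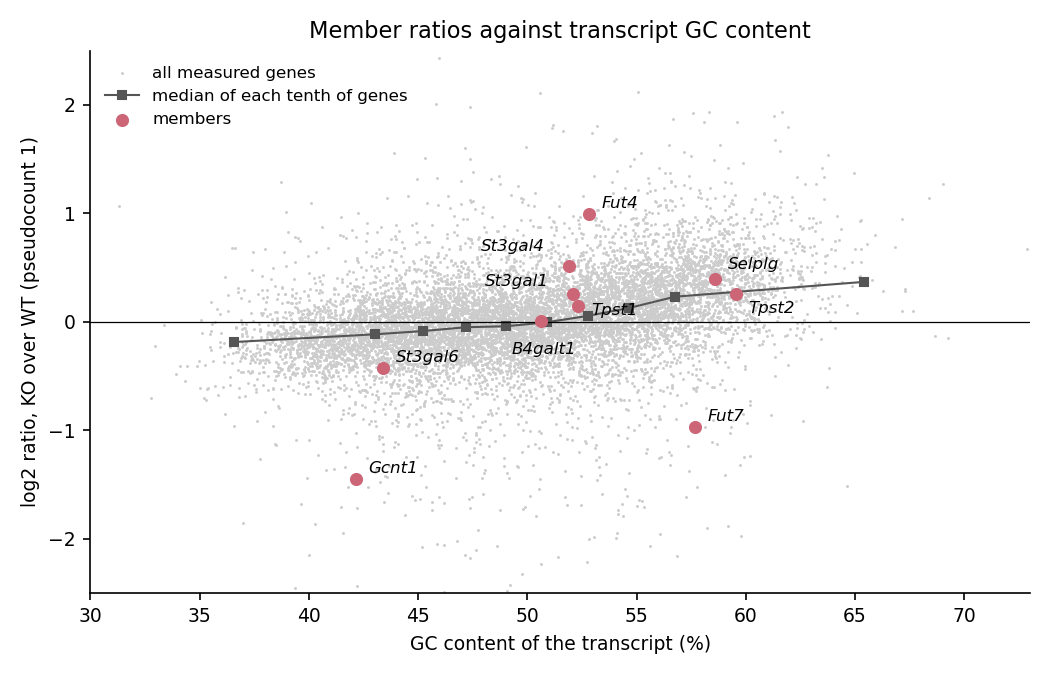
Log2 ratio of KO over WT (with a pseudocount of 1) against GC content of the transcript. Grey points are the 10447 measured genes with a known GC content, squares the median of each of 10 GC bands and red points the 10 members. Selplg and Tpst2 lie near the median of their band, while Gcnt1 and Fut7 lie well below the medians of theirs. Of all measured genes, with or without a known GC content, 26 had values beyond 2.5 in either direction, outside the plotted range.

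The branching enzyme showed the largest difference among the members. Gcnt1 (chr19:17326141-17372844, minus strand) encodes the core 2 enzyme that adds the branch carrying sialyl Lewis X on PSGL-1. It had 86 reads in WT and only 60 in KO, although KO was the deeper library. Its level was 7.18 CPM (interval 5.74 to 8.87) in WT and 2.59 (1.98 to 3.33) in KO, and the intervals do not overlap. Of all measured genes, 0.954% had a lower ratio than Gcnt1. Most of those genes have more reads than Gcnt1, which has a mean of 73. Among genes with a mean under 100 reads 15.7% were at least 1.5-fold lower, against 5.51% of all measured genes.

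A ratio of 2 genes inside a library does not depend on how the libraries are scaled. St3gal1, which caps the core 1 glycan with sialic acid and is known to compete with Gcnt1 for it, served as one partner. For every 100 reads of St3gal1 there were 2.75 of Gcnt1 in WT and 0.831 in KO, a 3.30-fold difference (2.34 to 4.69). Per 100 reads of Selplg, the counts of Gcnt1 were 0.787 and 0.216 (3.65-fold, 2.59 to 5.16), and per 100 reads of B4galt1 they were 3.73 and 1.34 (2.79-fold, 1.97 to 3.96). These comparisons all rest on the same Gcnt1 reads and follow from the folds of the single genes. They are therefore not separate observations of a lower Gcnt1 level, and the pairs were chosen after the values were seen. These pairs differ in GC content, and no correction for it was made in them.

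The fucosyltransferases were the least expressed members. Fut7 (chr2:25423267-25426374, plus strand), the main enzyme of sialyl Lewis X fucosylation in T cells, had 25 reads in WT and 24 in KO. Its level was 2.09 CPM (1.35 to 3.08) in WT and 1.04 (0.664 to 1.54) in KO, and these intervals overlap although the interval of the ratio lies on the lower side. Fut4 (chr9:14748320-14752393, minus strand), which can also make Lewis X structures on leukocytes, had 9 reads in WT and 36 in KO. Its ratio of 2.07 had an interval of 0.978 to 4.88, so a difference in Fut4 was not detectable at this depth. For every 100 reads of Fut4 there were 278 of Fut7 in WT and 66.7 in KO, a 4.17-fold difference with a wide interval of 1.53 to 11.8. Both genes have few reads, and the pair was chosen after their opposite ratios were seen, so this value is descriptive only. Per 100 reads of Selplg, Fut7 had 0.229 in WT and 0.0864 in KO (2.65-fold, 1.45 to 4.85).

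**Figure D3:**
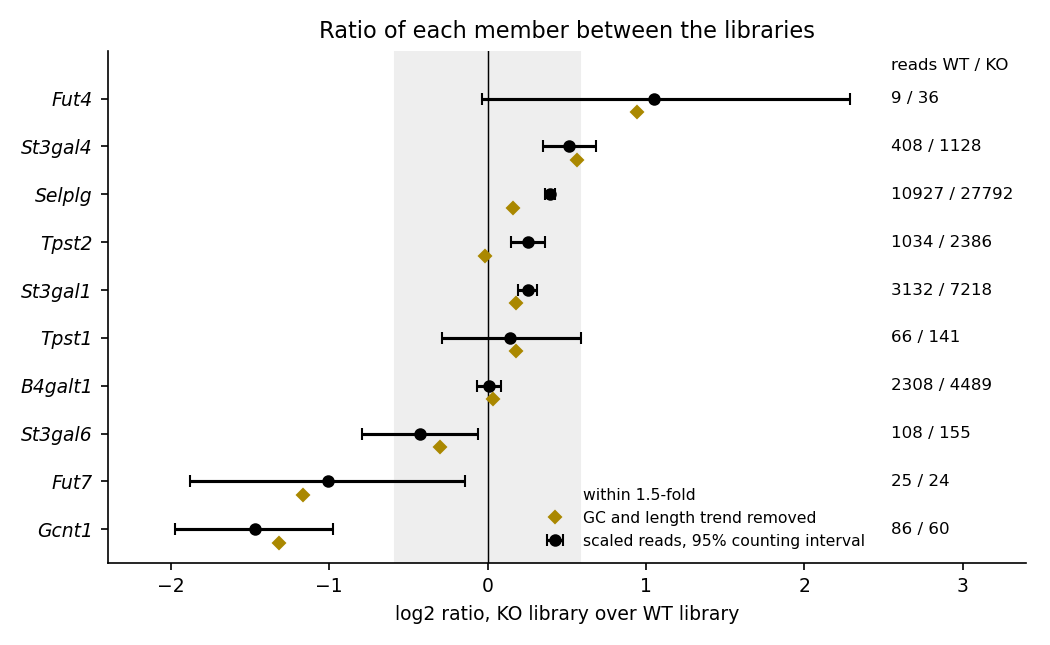
Log2 ratio of the KO over the WT library for each of the 10 members, without pseudocount, with exact 95% counting intervals (black) and, as diamonds, the ratio with the GC and length trend removed. The grey range is within 1.5-fold, and read counts of both libraries stand at the right. Gcnt1, Fut7 and St3gal6 have intervals wholly below 0, and St3gal4, Selplg, Tpst2 and St3gal1 wholly above it.

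The 3 sialyltransferases among the members did not share a direction. Of these, St3gal1 caps the core 1 glycan, as given above, so the shares below are not shares of 1 step. St3gal1 (chr15:67102875-67176830, minus strand) had 3132 reads in WT and 7218 in KO and was 1.19-fold higher (1.14 to 1.24). St3gal4 (chr9:35046576-35119268, minus strand), known to contribute to selectin ligands on leukocytes, had 408 and 1128 reads and was 1.43-fold higher (1.28 to 1.61). St3gal6 (chr16:58468125-58524243, minus strand), which is known to act with St3gal4 in making selectin ligands, had 108 and 155 reads and was lower, as given above. St3gal1 had most reads of the 3 enzymes, with 85.9% of their 3648 reads in WT (exact binomial interval 84.7 to 87.0) and 84.9% of 8501 in KO (84.1 to 85.7). The share of St3gal4 was 11.2% (10.2 to 12.3) in WT and 13.3% (12.6 to 14.0) in KO. That of St3gal6 was 2.96% (2.43 to 3.56) in WT and 1.82% (1.55 to 2.13) in KO, and these intervals do not overlap. These shares are of reads, and longer transcripts give more reads. Per exon length, St3gal1 took 74.4% in WT and 71.9% in KO, St3gal4 22.7% and 26.3%, and St3gal6 2.85% and 1.71%. For every 100 reads of St3gal4 there were 26.5 of St3gal6 in WT and 13.7 in KO, a 1.93-fold difference (1.45 to 2.54). Exons of St3gal6 share 26.0% of their length with Dcbld2 on the opposite strand, and those of St3gal4 share 14.1% with 4930581F22Rik. The strand setting of the counter is not stated in the sources. Dcbld2 had 7 and 3 reads and 4930581F22Rik 20 and 63.

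The tyrosine sulfotransferases showed no detectable difference in their balance. Tpst2 (chr5:112276691-112315361, plus strand), the more abundant of the pair, had 1034 reads in WT and 2386 in KO, and was 1.19-fold higher (1.11 to 1.28). Tpst1 (chr5:130073326-130135729, plus strand) had 66 and 141 reads and a ratio of 1.10, with an interval of 0.819 to 1.503 that spans no difference. Per length, Tpst2 stood at 30.9 and 36.9 RPKM and Tpst1 at 1.98 and 2.18. For every 100 reads of Tpst2 there were 6.38 of Tpst1 in WT and 5.91 in KO, a ratio of 0.926 with an interval of 0.680 to 1.27.

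Per length, the order of the members from the highest was the same in both libraries: Selplg, B4galt1, St3gal1, Tpst2, St3gal4, Tpst1, St3gal6, Gcnt1, Fut7 and Fut4. In the WT library the intervals of neighbours overlapped from Tpst1 to St3gal6, from St3gal6 to Gcnt1 and from Gcnt1 to Fut7. In the KO library they overlapped between B4galt1 (45.8) and St3gal1 (45.5), between Gcnt1 (0.450) and Fut7 (0.440), and between Fut7 and Fut4 (0.382). The enzymes thus fell into an abundant set of B4galt1, St3gal1, Tpst2 and St3gal4, all above 11 RPKM, and a scarce set of the other 5, none above 2.2. Gcnt1, which in WT lay clear of Fut4 (1.25 against 0.184), stood among the fucosyltransferases in KO.

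The promoters of the 3 members with a ratio below 0 are shown because these genes differed in the same direction. RefSeq start sites on GRCm38.p6 were matched for 8 of the 10 genes, all but Selplg and St3gal1, in 15 windows. The 4 windows printed are the 250 bases before those start sites of Gcnt1, Fut7 and St3gal6 that hold no annotated exon, read 5′ to 3′ on the strand of the gene. Capitals mark a match on either strand to a T-box motif (GTGTGA, or TCACAC on the other strand) or a GATA motif (AGATAA, or TTATCT).
Gcnt1 chr19:17372845-17373094 (minus strand): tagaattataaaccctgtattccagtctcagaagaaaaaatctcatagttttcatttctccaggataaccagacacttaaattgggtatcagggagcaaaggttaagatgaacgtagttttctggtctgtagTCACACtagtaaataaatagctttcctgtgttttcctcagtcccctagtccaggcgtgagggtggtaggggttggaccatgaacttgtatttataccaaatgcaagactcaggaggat
Gcnt1 chr19:17356668-17356917 (minus strand): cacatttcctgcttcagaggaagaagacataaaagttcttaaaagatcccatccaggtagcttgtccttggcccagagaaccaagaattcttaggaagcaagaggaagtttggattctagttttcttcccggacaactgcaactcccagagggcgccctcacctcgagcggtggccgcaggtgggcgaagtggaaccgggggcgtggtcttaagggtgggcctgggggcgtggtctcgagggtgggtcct
Fut7 chr2:25422992-25423241 (plus strand): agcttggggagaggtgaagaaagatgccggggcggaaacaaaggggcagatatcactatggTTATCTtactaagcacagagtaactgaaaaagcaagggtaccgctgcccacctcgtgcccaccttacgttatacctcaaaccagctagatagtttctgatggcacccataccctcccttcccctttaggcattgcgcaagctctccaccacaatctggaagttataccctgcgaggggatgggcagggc
St3gal6 chr16:58524254-58524503 (minus strand): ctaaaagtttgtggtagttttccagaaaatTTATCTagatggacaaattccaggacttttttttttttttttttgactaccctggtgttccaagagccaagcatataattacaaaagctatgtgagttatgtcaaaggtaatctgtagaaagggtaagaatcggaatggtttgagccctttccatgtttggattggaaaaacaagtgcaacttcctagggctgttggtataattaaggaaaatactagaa
The window of Gcnt1 farthest upstream held a T-box motif 118 bases before the start site, and the other Gcnt1 window held no match. The Fut7 window held a GATA motif 189 bases before the start site and the St3gal6 window held one 220 bases before it. A STAT-type palindrome (TTCNNNGAA) and a KLF-type motif (CCACACCC, or GGGTGTGG) were searched as well and were not in these 4 windows. Over 32851 windows of the same length, 12.3% held the T-box motif, 9.99% the GATA motif, 7.02% the STAT-type palindrome and 3.20% the KLF-type motif. Over the 15 windows of members, 1 held the T-box motif, 2 the GATA motif, 1 the palindrome and 1 the KLF-type motif.

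Of 5 factors that are known to control selectin ligand genes in T cells, 2 were lower in KO by at least 1.5-fold, 1 was higher and 2 lay between, with a median log2 ratio of -0.34. Over all measured genes 5.51% were lower and 7.43% higher by that fold, and 15.7% and 16.3% of those with a mean under 100 reads, among which is Tbx21. Tbx21 encodes T-bet, which is known to promote selectin ligand expression in helper cells. It had 85 and 83 reads and was 1.98-fold lower (1.45 to 2.71), at -0.97 on the log2 scale. Il12rb1, a chain of the IL-12 receptor, had 354 and 451 reads and was 1.52-fold lower (1.32 to 1.75). Stat4, which carries the IL-12 signal, had 2376 and 3631 reads and was 1.26-fold lower (1.20 to 1.33). Gata3, a factor of the opposing helper programme, had 1040 and 3193 reads and was 1.59-fold higher (1.48 to 1.71). Part of the exons of Stat4 and Gata3 is shared with other annotated genes on the same strand. Whether any of these factors has a part in the ratios of the members was not tested.

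Over the 8 other lists of pathway genes, 69 of 84 genes were measured. Of these 9 were at least 1.5-fold lower, 4 higher and 56 between, with a median of -0.04. That is 13.0% lower and 5.80% higher, beside the 5.51% and 7.43% of all measured genes.

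The start of the O-glycan differed little. All 10 genes of the list for initiation and core 1 lay within 1.5-fold, with a median of 0.13. C1galt1, which makes the core 1 glycan on which Gcnt1 acts, had 1050 and 1971 reads and a ratio of 0.971 (0.900 to 1.05). C1galt1c1, the chaperone that C1galt1 needs, had 135 and 250 reads and a ratio of 0.958 (0.774 to 1.19). Among the initiating enzymes, Galnt10 was 1.37-fold higher (1.31 to 1.42) and Galnt2 1.26-fold higher (1.18 to 1.35), though exons of Galnt2 are shared with Gm20388, while Galnt7 was 1.24-fold lower (1.14 to 1.34). With the GC and length trend removed the log2 ratio of Galnt10 went from 0.45 to 0.20, that of Galnt2 from 0.33 to 0.15 and that of Galnt7 from -0.31 to -0.17. Galnt3 had 77 and 113 reads and a log2 ratio of -0.39.

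Chain branching and extension was the list of more than 5 measured genes with the lowest median, at -0.35. Of its 9 measured genes 7 had a ratio below 0, against 48.6% of all measured genes. At least 1.5-fold lower were 2 of the 9, against 5.51% of all measured genes. B3gnt5, which starts lacto-series chains on glycolipids, had 237 and 263 reads and was 1.74-fold lower (1.46 to 2.09). B4galt4, another galactosyltransferase, had 97 and 110 reads and was 1.71-fold lower (1.28 to 2.26). Mgat5, which branches N-glycans, was 1.30-fold lower (1.15 to 1.47), and Gcnt2, which branches linear chains, had 21 and 27 reads, with an interval from 0.362 to 1.24 for its ratio. The other core 2 enzymes gave little signal: Gcnt3 was at 0 in both libraries and Gcnt4 had 1 and 3 reads. Gcnt1 was thus the core 2 enzyme with most reads.

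Among sulfotransferases of sugars only Chst2 was measured. Chst2 adds sulfate to N-acetylglucosamine of glycan chains. It had 272 reads in WT and 193 in KO and was 2.73-fold lower (2.26 to 3.29), close to the value of Gcnt1. Chst4 was at 0 in both libraries, Chst1 had 0 and 2 reads and Chst7 3 and 0.

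Of 13 other measured sialyltransferases and sialidases, 3 were at least 1.5-fold lower, none higher and 10 between, with a median of 0.05, beside the 5.51% of all measured genes that were lower. Neu3, a sialidase that removes sialic acid from gangliosides, had 303 and 227 reads and was 2.58-fold lower (2.17 to 3.08). St8sia4, which makes polysialic acid, had 2664 and 3404 reads and was 1.51-fold lower (1.44 to 1.59). St6galnac6, an enzyme that sialylates glycolipids, had 39 and 48 reads and was 1.57-fold lower (1.00 to 2.45), and 15.7% of genes with a mean under 100 reads were lower by at least 1.5-fold. St6galnac3 lay within 1.5-fold at -0.44. With the GC and length trend removed St8sia4 also lay within 1.5-fold, at -0.44.

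The other fucosyltransferases differed little, and Fut1, Fut2 and Fut9 were at 0 in both libraries. All 5 measured genes of that list lay within 1.5-fold, with a median of -0.06. Fut8, which adds core fucose to N-glycans, had 591 and 1095 reads and a ratio of 0.958 (0.866 to 1.06). Pofut1, which fucosylates Notch receptors, had 794 and 1463 reads and a ratio of 0.953 (0.873 to 1.04). Pofut2 was 1.44-fold higher (1.27 to 1.63), and with the GC and length trend removed it went from 0.52 to 0.30 on the log2 scale. Fut10 had 47 and 75 reads and a ratio of 0.825 (0.566 to 1.21). No measured gene of that list had a ratio as low as that of Fut7. The interval of the Fut7 ratio, 0.271 to 0.906 on 25 and 24 reads, overlaps those of Fut8, Pofut1 and Fut10.

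**Figure D4:**
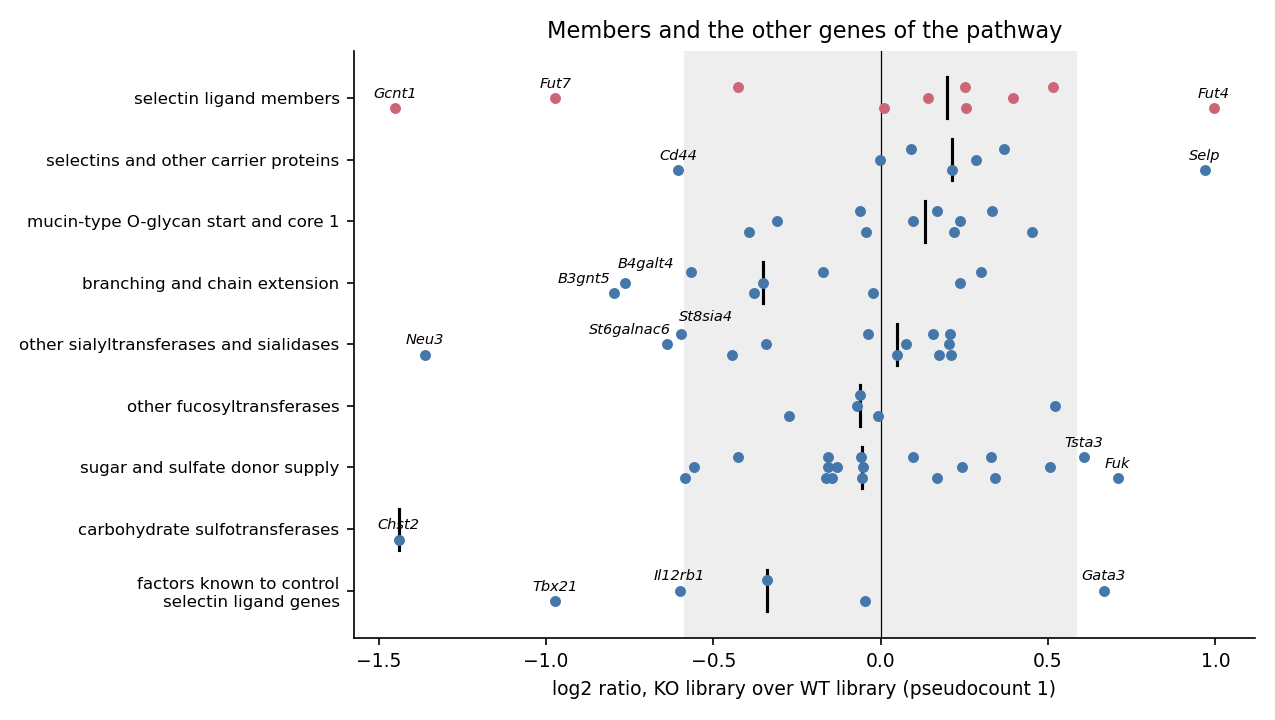
Log2 ratio of KO over WT (with a pseudocount of 1) for the measured genes of each list, with the members in red, the list median as a black bar and the range within 1.5-fold in grey. Genes past 1.5-fold are named. The 10 genes of O-glycan initiation and core 1 all lie in the grey range, while Gcnt1, Chst2 and Neu3 lie below -1.3.

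Most genes for the supply of donors to these enzymes were at like RNA levels, and the donors themselves were not measured. Of 19 genes for supply of activated fucose, sialic acid, galactose and sulfate, 17 lay within 1.5-fold, 2 were higher and 0 lower (median -0.06). Over all measured genes 7.43% were higher and 5.51% lower by that fold. Both higher genes make GDP-fucose: Fuk, the fucose kinase of the salvage route, had 95 and 301 reads and was 1.64-fold higher (1.30 to 2.09), and Tsta3, of the main route, had 165 and 487 reads and was 1.53-fold higher (1.28 to 1.83). With the GC and length trend removed both lay within 1.5-fold, at 0.37 and 0.47. Nanp, of sialic acid synthesis, and Papss2, which makes the sulfate donor, had log2 ratios of -0.56 and -0.58. Papss2 had 36 and 46 reads and without pseudocount was 1.51-fold lower, with an interval of 0.418 to 1.05 for its ratio. The pseudocount of 1 put it within 1.5-fold. The count of 0 lower genes thus depends on the processing. It was 1 with DESeq2 size factors, and with total-read scaling 2 genes were lower and 1 was higher.

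Other carriers of selectin-binding sugars went both ways. Spn, which encodes CD43, an E-selectin ligand of activated T cells, had 7776 and 19410 reads and was 1.29-fold higher (1.26 to 1.33). That is close to Selplg before the GC and length trend is removed. After removal Spn was at 0.32 and Selplg at 0.16 on the log2 scale. Cd44, whose glycosylated form binds E-selectin and which marks antigen-experienced T cells, had 2167 and 2755 reads and was 1.52-fold lower (1.44 to 1.61), and with the GC and length trend removed it lay within 1.5-fold at -0.54. Of the selectins, Selp, which encodes P-selectin, a protein of platelets and endothelium, had 56 and 213 reads and was 1.97-fold higher (1.46 to 2.69), with part of its exons shared with Gm16548 on the opposite strand. The summed platelet markers, given above, rest on 30 and 55 reads, with an interval of 0.597 to 1.53 for the ratio. The endothelial markers, which include Sele, rest on 46 and 96 reads (0.752 to 1.57). Whether such cells gave the Selp reads was not tested. Sele had 16 and 38 reads and a ratio of 1.23 (0.669 to 2.36).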

How the data were processed

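The values are raw read counts per gene symbol, which the authors deposited in 1 table. TopHat2 2.0.3 and HTSeq were used with the build mm10, per the submitters' processing notes. The annotation, the strand setting and the length of reads are not stated there. Per the labels' protocols, mRNA was isolated with beads and libraries were made with a kit that starts from 1 ng of DNA. Of all counted reads, 76.6% fell in genes in each library, and the counter's 5 categories for other reads were left out. Reads that align to several places (15.6% in WT, 15.0% in KO) were not counted to genes.

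Counts were scaled with TMM factors of edgeR 4.0.16 (1.03 for WT, 0.974 for KO). No test was run, and edgeR and DESeq2 1.42.0 served for scaling alone. Folds and levels use no pseudocount. Calls, log2 ratios and medians use a pseudocount of 1 on counts scaled to the mean library. Intervals are exact conditional binomial (ratios, shares) or Poisson (levels) intervals at 95%, cover counting error only and treat reads as independent molecules, which they are not. Exon lengths, GC content (longest coding transcript) and coordinates come from GENCODE M21 (GRCm38, the same assembly as mm10). The GC and length trend was a lowess fit (fraction 0.3) over 10447 measured genes. Promoter sequences come from RefSeq. The functions were checked on simulated data.

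The members, lists and alternatives were chosen with earlier results of these data known. The within-library pairs and the motifs were chosen after the values were seen. All members are named, and from each other list up to 4 measured genes with the largest absolute ratio, with Spn, Cd44, C1galt1, C1galt1c1, Tbx21 and Gata3 always. Genes at or near 0 in those lists are named besides. Some genes that this rule takes, and the targeted gene, are not reported here. Python 3.11.15, pandas 2.3.3, numpy 2.4.6, scipy 1.17.1, statsmodels 0.14.6 and matplotlib 3.10.9 were used.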

Additional observations from a re-analysis of the deposited data

How the results depend on the processing

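Gcnt1 stayed at least 1.5-fold lower under the 7 alternatives in which it was measured, with log2 ratios from -1.53 to -1.32, and Fut7 did so with -1.17 to -0.84. Fut4 stayed at least 1.5-fold higher, with 0.83 to 1.02, although its counting interval spans no difference. With a floor of a mean of 100 reads these 3 genes were no longer measured, and the counts of lower and higher members were 0 and 0, compared with 2 and 1. With the GC and length trend removed the median of the members was 0.10 in place of 0.20, and 2 of the other pathway genes were at least 1.5-fold higher, compared with 4. With a floor of 1 read in either library that count was 7. Of 77 recomputed log2 ratios of members, 71 lay inside the counting interval, 6 outside it, and none of a called member changed sign. Total-read scaling shifted the median of all genes to -0.06. No paired analysis was possible because there is 1 library per group, and for the same reason no replicate could be left out. Depth limits Fut4, Fut7, Gcnt1 and Tpst1 most, since the libraries hold few reads of them.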
